A study of Mus musculus with 6 samples.

Results

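The small intestine takes up glucose and galactose with sodium and takes up fructose by facilitated diffusion, and the enterocyte, the absorptive cell of the gut lining, then passes sugar to the blood or works on it first. This account follows 9 genes of that route, chosen by symbol, in a table of 32219 genes. Slc5a1, Slc2a5 and Slc2a7 encode transporters of the luminal side, and Slc2a2 and Slc2a1 encode glucose carriers linked mainly with the blood side. Khk and Tkfc encode enzymes of fructose breakdown, and Fbp1 and G6pc encode enzymes of glucose output. All 9 symbols were found in the table.

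The data are 6 RNA-seq libraries of mouse intestine, 3 of genotype WT and 3 of genotype KO, numbered 1 to 3 in each group. RNA was taken from the whole tissue, which the labels describe as epithelium with immune cells and enteric neurons, and the design text of the series places it in the duodenum. The title of the series concerns GPR41 and DHX9 in enteric neurons. The knocked-out gene, its cell type, the strain, age and sex of the mice, and whether each library came from a separate animal are unstated in the labels, so p-values measure the spread between libraries, which may be technical. In whole tissue, fewer cells of a type and less RNA per cell cannot be told apart.

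Fructose that enters the enterocyte through GLUT5 is phosphorylated by ketohexokinase, then split, and led by triokinase into the pool of triose phosphates. From there fructose-1,6-bisphosphatase and glucose-6-phosphatase can turn it into glucose. Transport and fructose handling are known to be strongest in the proximal small intestine and to rise with dietary sugar.

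Values are taken as log2(abundance + 1). Sequencing depth is unknown, and since no source states whether abundance was scaled to gene length, levels are compared between libraries and never between genes. The KO 1 column is incomplete. Its chromosomes 2 to 9, X, Y and M are listed at 0 for every gene with a mean above 1 in the other libraries. So is chromosome 19 beyond position 10207824. Of the 9 genes, 7 therefore have no value in KO 1 and only G6pc and Fbp1 do. Where KO 1 does hold values they run 2.12 times high, and they are given here after division by that factor. The comparison of KO with WT therefore rests on KO 2 and KO 3 against the 3 WT libraries, tested by limma over 23408 genes with Benjamini-Hochberg adjustment and a threshold of 0.05.

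The tissue was checked against marker genes. In the 5 libraries other than KO 1, the 5 ileal markers ran from 5.02 for Fgf15 to 8.76 for Fabp6, although the design text names the duodenum. The 6 proximal markers did not go one way. Gata4, whose product specifies proximal gut, lay between 0.43 and 0.63, Gip between 0.27 and 1.22, and Lct between 1.08 and 2.01. Cybrd1 ranged from 1.88 to 2.67, Cck from 2.39 to 2.88, and Slc40a1, the iron exporter, from 6.30 to 6.67. KO 1 differed after rescaling, with Fabp6 at 3.91, Gata4 at 5.19, Slc40a1 at 5.15, the ileal marker Slc51a at 6.54 against 6.86 to 7.21, and the smooth muscle gene Myh11 at 3.80 against 7.34 to 7.82. Segment and genotype cannot be told apart in KO 1. Of 5 pancreas markers, 4 stayed below 1 in all 5 libraries, as did all 5 markers of liver and kidney.

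Promoter sequence is shown for 4 of the genes because motifs of epithelial regulators were searched there. RefSeq (GRCm38.p6, the assembly of mm10) gave sequence for all 9 genes, and the search covered the 250 bases before each gene's start on both strands. One motif, GTTAAT, is the core of a site for HNF1, a regulator of epithelial genes. Another, CACGTG, is the E-box that carbohydrate response factors can bind. The last, AGATAA, is bound by GATA factors. These letters do not overlap each other. GTTAAT was found in 6.43% of 32851 promoters, CACGTG in 6.02% and AGATAA in 9.99%. Among the 9 genes, GTTAAT was found in Khk and G6pc, CACGTG in Khk and Slc5a1, and AGATAA in Fbp1. Capitals mark the motifs, each line reads 5′ to 3′ on the gene's strand, and bases that GENCODE places inside a transcript were left out, apart from a 30-base window of Khk. The stretches are Slc5a1 at chr5:33103969-33104218 (plus strand), Khk at chr5:30921482-30921511 (plus strand), G6pc at chr11:101367466-101367560 (plus strand) and Fbp1 at chr13:62888283-62888532 (minus strand).
Slc5a1: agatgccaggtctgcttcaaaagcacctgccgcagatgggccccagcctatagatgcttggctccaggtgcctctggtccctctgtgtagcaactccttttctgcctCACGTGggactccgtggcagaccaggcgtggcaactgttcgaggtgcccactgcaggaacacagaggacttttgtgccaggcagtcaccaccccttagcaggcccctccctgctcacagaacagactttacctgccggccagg
Khk: ccccgtCACGTGacaccGTTAATctggcgc
G6pc: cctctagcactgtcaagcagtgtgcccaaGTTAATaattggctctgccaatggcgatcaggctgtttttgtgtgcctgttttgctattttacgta
Fbp1: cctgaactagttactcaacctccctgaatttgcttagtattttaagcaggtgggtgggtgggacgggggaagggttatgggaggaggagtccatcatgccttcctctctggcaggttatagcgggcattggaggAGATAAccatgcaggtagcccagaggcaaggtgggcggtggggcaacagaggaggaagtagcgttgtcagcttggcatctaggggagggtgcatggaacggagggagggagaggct
In the Khk promoter the E-box lay 71 to 66 bases and the HNF1 core 60 to 55 bases before the start, within one 30-base window. A match describes letters and shows no binding.

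Across the 9 genes, no difference between KO and WT passed the test. The count was 0 of 9 by limma, against 0.00427% of all genes tested (1 of 23408). Before adjustment, 0 of the 9 had a p under 0.05 by limma, against 565 of the 23408 genes tested. With shares this small over all genes, neither count of 0 sets the 9 genes apart. Log2 folds ran from -0.09 for Slc2a2 to 0.56 for Slc2a5, with 8 genes above 0 and 1 below. Most folds in the table were also above 0, 14228 against 9180 below. The median of the 9 folds was 0.21 beside 0.02 over all genes tested. The limma adjusted p was 0.99997 for each of the 9.

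Slc5a1 encodes SGLT1, the sodium-coupled transporter that brings glucose and galactose in from the lumen (chromosome 5, 33104219 to 33162870, plus strand, in GRCm38 as are all gene positions here). It stood at 6.67, 6.33 and 6.64 in WT 1 to WT 3, at 6.44 in KO 2 and at 6.93 in KO 3. KO 3 was the highest library and KO 2 lay inside the WT range, so the groups overlapped. The fold was 0.14 ± 0.18 (SE, 95% interval -0.32 to 0.59), and without KO 3 it turned to -0.11. On the linear scale of abundance + 1, the interval spans a ratio of 0.80 to 1.51.

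Slc2a5 encodes GLUT5, the fructose transporter of the brush border (chromosome 4, 150119283 to 150144169, plus strand). WT 1 to WT 3 held 2.51, 2.27 and 2.02, against 2.45 for KO 2 and 3.20 for KO 3. KO 3 stood 0.94 above the WT mean, while KO 2 stood 0.19 above it and inside the WT range. The fold of 0.56 ± 0.27 (SE, 95% interval -0.11 to 1.23) had the smallest unadjusted p of the 9 genes, 0.0850 by limma. It was 0.94 without KO 2 and 0.19 without KO 3.

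Slc2a7 encodes GLUT7, a low-capacity hexose transporter of the intestine whose gene lies next to Slc2a5 (chromosome 4, 150148972 to 150168482, plus strand). It was low, at 0.90, 0.97 and 0.98 for WT, 1.0 for KO 2 and 1.42 for KO 3. Both KO libraries lay above all WT libraries, KO 2 by a margin within the WT spread of 0.04 (SD, n = 3). The fold was 0.26 ± 0.16 (SE) and 0.05 without KO 3, and near 0 such a fold understates a ratio of abundances.

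Slc2a2 encodes GLUT2, the carrier through which glucose, galactose and fructose leave the enterocyte (chromosome 3, 28697903 to 28731359, plus strand). WT 1 to WT 3 held 0.73, 1.15 and 1.30, while KO 2 held 0.60 and KO 3 held 1.34. KO 2 was the lowest library and KO 3 the highest, so the KO libraries enclosed the WT range. The fold of -0.09 ± 0.28 (SE, 95% interval -0.78 to 0.59) turned to 0.28 without KO 2 and to 0.03 without WT 3. At such low values it depends on the added constant, at -0.22 with 0.1 and -0.02 with 5.

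Slc2a1 encodes GLUT1, a glucose carrier of many cell types, among them endothelium (chromosome 4, 119108711 to 119137983, plus strand). It was the single gene of the 9 that was not highest in KO 3. WT held both the lowest and the highest library, at 2.99, 3.19 and 3.57, and KO 2 and KO 3 fell between them at 3.36 and 3.26. The fold was 0.06 ± 0.18 (SE, 95% interval -0.40 to 0.51), and it turned to -0.07 without WT 1. Its exons overlap the antisense gene Gm12868, and without a stated strand setting the reads of these genes cannot be told apart. The summed linear level of 5 endothelium markers was 54.8, 65.4 and 43.2 for WT, 51.6 for KO 2 and 47.6 for KO 3. Their part in the Slc2a1 values was not tested.

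**Figure D1:**
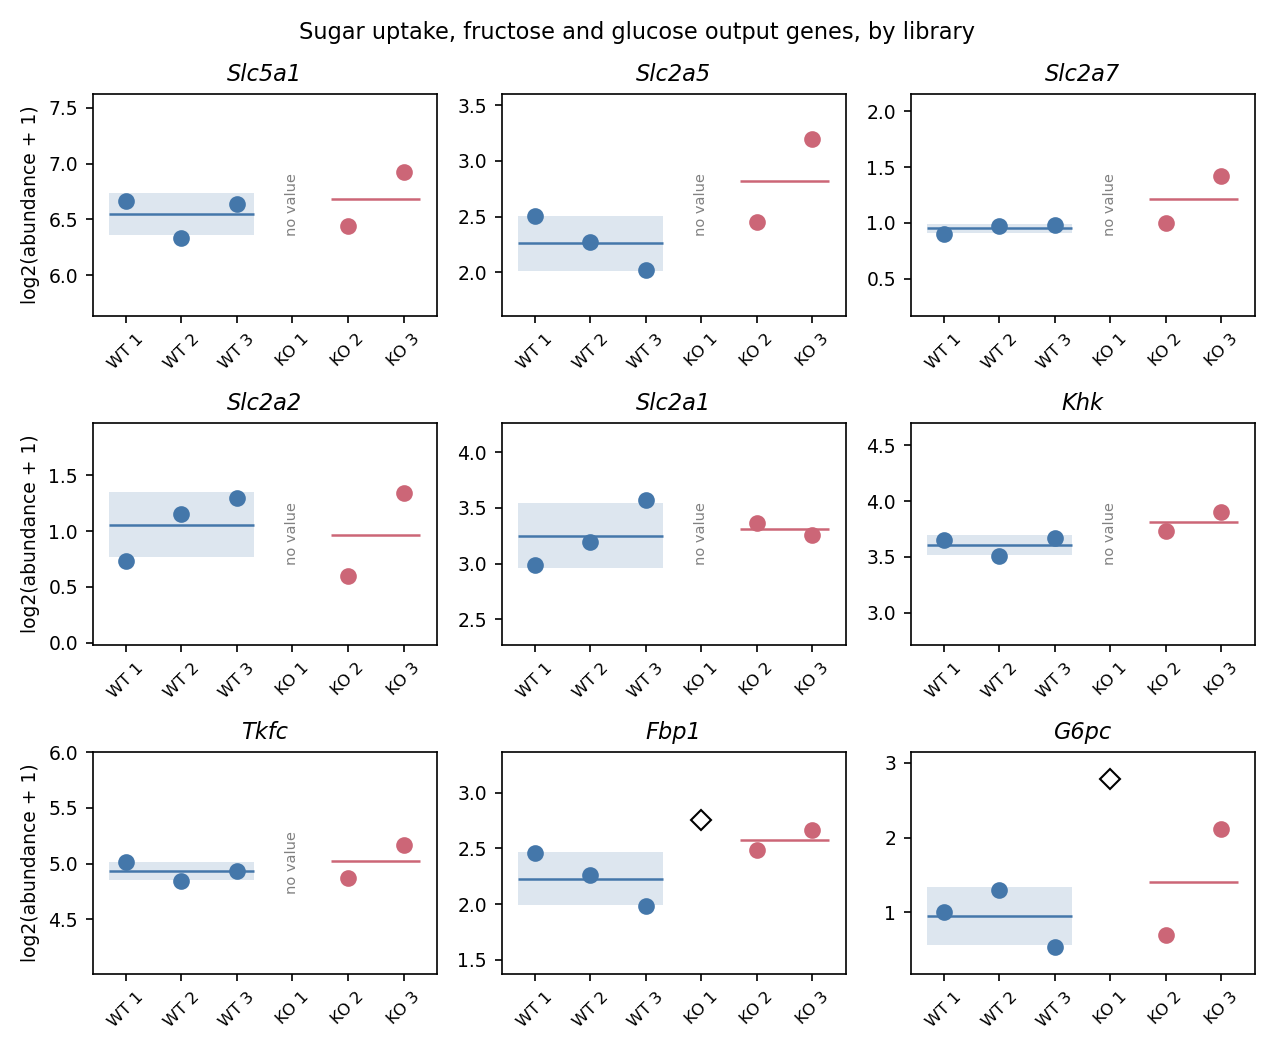
Log2(abundance + 1) of the 9 genes in each library, WT in blue and KO in red, with group means as lines, the WT SD as a band, and the rescaled KO 1 as an open diamond for Fbp1 and G6pc; each panel has its own vertical range. KO 3 is the highest filled point in 8 panels, and in the Slc2a1 panel both KO points lie between WT 1 at 2.99 and WT 3 at 3.57.

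Khk encodes ketohexokinase, which commits fructose to breakdown (chromosome 5, 30921431 to 30931248, plus strand). WT libraries stood at 3.65, 3.51 and 3.67, KO 2 at 3.73 and KO 3 at 3.90, so both KO libraries were above all WT libraries. The fold was 0.21 ± 0.10 (SE, 95% interval -0.05 to 0.47, unadjusted p = 0.0974 by limma), and 0.12 without KO 3. Tkfc encodes triokinase, which phosphorylates the glyceraldehyde released from fructose (chromosome 19, 10587791 to 10605654, minus strand). WT 1 to WT 3 held 5.01, 4.84 and 4.93, KO 2 held 4.87 and KO 3 held 5.17. The groups overlapped, and the fold of 0.09 ± 0.12 (SE, 95% interval -0.19 to 0.38) was -0.06 without KO 3. Its exons overlap Cyb561a3 and Ddb1 on the opposite strand, so its reads may include theirs.

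Fbp1 encodes fructose-1,6-bisphosphatase (chromosome 13, 62864753 to 62888282, minus strand). WT 1 to WT 3 held 2.46, 2.26 and 1.98, against 2.49 for KO 2, 2.67 for KO 3 and 2.76 for KO 1 after rescaling. KO 2 and KO 3 were above all WT libraries, KO 2 by 0.03 on the values printed. KO 1 was above them too, but segment and genotype cannot be told apart in that library. The fold was 0.34 ± 0.19 (SE, 95% interval -0.12 to 0.80) without KO 1, and 0.22 when WT 3 was left out too. With KO 1 the fold was 0.41 ± 0.17 (SE, unadjusted p = 0.0478, adjusted p = 0.99995 by limma), under the same limit.

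G6pc encodes the catalytic subunit of glucose-6-phosphatase, the last step of glucose release (chromosome 11, 101367561 to 101377903, plus strand). It varied most of the 9 genes over the 5 libraries, at 1.01, 1.30 and 0.53 for WT, 0.69 for KO 2 and 2.11 for KO 3. KO 2 lay within the WT range and KO 3 stood 1.42 above KO 2, so the KO libraries differed from each other by more than WT libraries did. KO 1 was higher still at 2.79 after rescaling. The fold was 0.45 ± 0.45 (SE, 95% interval -0.66 to 1.57) without KO 1 and 0.92 ± 0.53 (SE, adjusted p = 0.99995 by limma) with it. It turned to -0.26 without KO 3 when KO 1 was also left out. The WT values are low, where a fold depends on the added constant. Without KO 1 the fold was 0.67 with a constant of 0.1 and 0.2 with 5. Of the 4 proximal markers that KO 1 covers, 3 were higher there than in the other 5 libraries, Lct at 7.05, Gata4 at 5.19 and Gip at 4.02, and Slc40a1 was lower at 5.15 against 6.30 to 6.67. Their part in the G6pc value was not tested. In KO 3, Lct at 1.81 and Gata4 at 0.50 were inside their WT ranges, while Gip stood at 1.22 against 0.27 to 0.77 in WT and at 1.14 in KO 2.

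**Figure D2:**
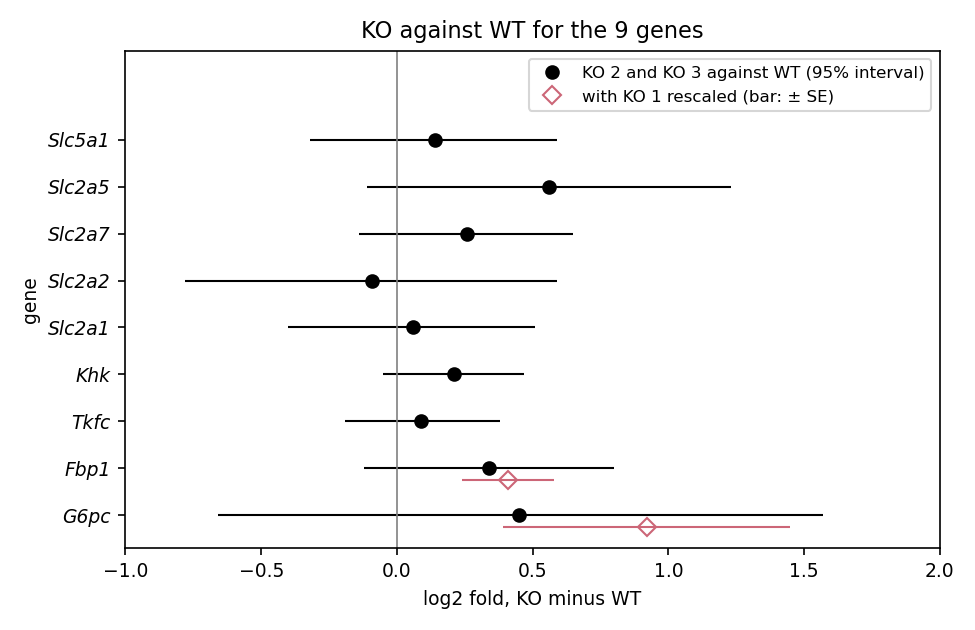
Log2 fold of KO over WT for the 9 genes (horizontal axis), as points with 95% intervals from limma without KO 1, and as open diamonds with SE bars for Fbp1 and G6pc with KO 1 rescaled. Every interval holds 0, and the widest is that of G6pc, from -0.66 to 1.57.

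In 3 of the 9 genes, Slc2a7, Khk and Fbp1, KO 2 and KO 3 were both above all WT libraries, against 9.76% of all genes tested, and none had both below, against 3.55%. A pattern seen once the values were known was that KO 3 topped the 5 libraries for 8 of the 9 genes, against 26% of all genes tested. The median difference from the WT mean was 0.38 in KO 3 and 0.05 in KO 2 over the 9 genes, where both libraries stood at 0.02 over all genes tested. The higher KO mean of these genes is thus mostly that of a single library, KO 3.

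The mean log2 value of Vil1, Alpi, Anpep, Fabp2 and Cdhr5 was 7.81, 7.41 and 7.64 for WT, 7.52 for KO 2 and 7.96 for KO 3, the same order of libraries as Slc5a1. The lead of KO 3 in that mean came from Alpi, at 6.49 against 5.66 to 6.07 in the other 4 libraries, and Fabp2, at 7.71 against 6.59 to 7.05. Vil1, Anpep and Cdhr5 were highest in WT 1, and the summed linear level of the 5 markers was 1620 in WT 1 and 1580 in KO 3. Taking that mean away narrowed the span of Slc5a1 over the 5 libraries from 0.60 to 0.14, and that of Tkfc from 0.33 to 0.23. It left Slc2a5 spanning 0.86 of 1.18 and G6pc 1.25 of 1.58, and these alone were still highest in KO 3. Relative to the markers, Slc5a1 and Slc2a1 were highest in WT 3, and Slc2a2, Slc2a7 and Tkfc in WT 2. Khk and Fbp1 were highest in KO 2. The folds relative to these markers were 0.01 for Slc5a1, -0.03 for Tkfc, 0.44 for Slc2a5 and 0.33 for G6pc, none past the threshold by limma. This setting was chosen after the values were seen.

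**Figure D3:**
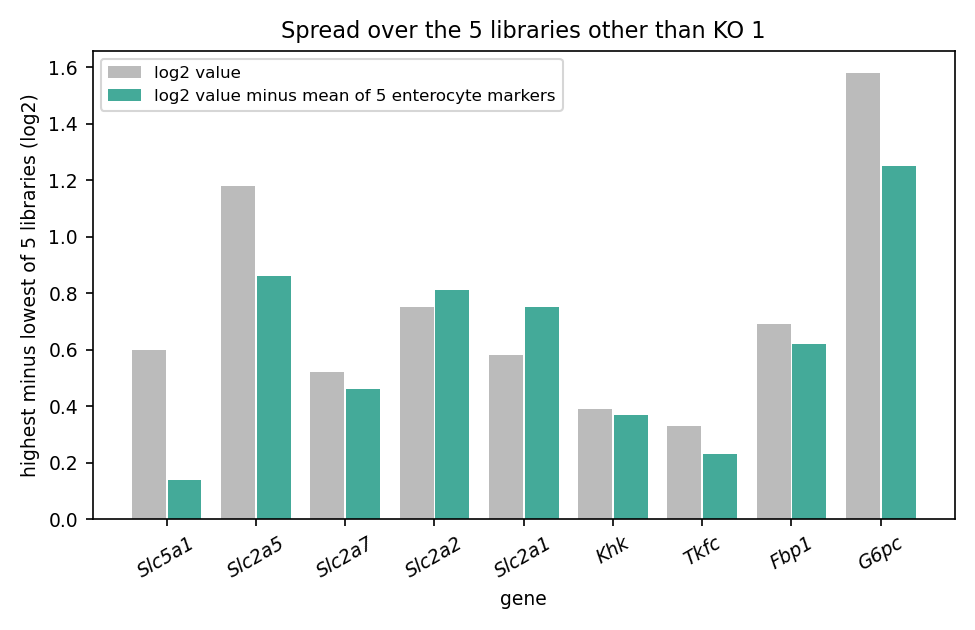
Span of each gene's values over the 5 libraries other than KO 1 (highest minus lowest, log2), before (grey) and after (green) subtracting the mean of 5 enterocyte markers in each library. The span of Slc5a1 falls from 0.60 to 0.14, while G6pc keeps 1.25 of 1.58 and Slc2a1 widens from 0.58 to 0.75.

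Markers of other cell types also differed between libraries. The summed linear level of 5 leukocyte markers was 25.6, 59.9 and 18.6 for WT, 84.4 for KO 2 and 22.4 for KO 3, so WT 2 and KO 2 were the high libraries. For 5 red blood cell markers the summed level was 552, 775 and 288 for WT, 581 for KO 2 and 265 for KO 3. Red blood cell markers were thus low in WT 3 and KO 3. Smooth muscle markers stood between 718 in WT 1 and 1070 in KO 3, with 986 in WT 2 and 966 in WT 3. Enteric neuron markers were highest in KO 3 for 5 of 5 genes, against 26% of all genes tested. Their summed level was 17.5, 21.2 and 19.2 for WT, 16.3 for KO 2 and 25.8 for KO 3. Of the 3 enteric glia markers, 0 were highest in KO 3. All 5 fibroblast markers had folds below 0, from -0.44 to -0.19, and for 4 of them both KO libraries lay below all WT libraries, against 3.55% of all genes tested, while 0 of 5 passed the test. Whether these shares of tissue set any value above was not tested.

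Genes with the most similar library pattern were found by the root mean square difference of deviations from each gene's own mean over the 5 libraries. For Slc5a1 they were Selenoi (difference 0.00868), Slc27a4 (0.0238), a fatty acid transport protein, and Hook2 (0.0287), among 10612 genes. For Khk they were Nadk2 (0.0203), a mitochondrial NAD kinase, Mab21l4 (0.0206) and Errfi1 (0.0207), an inhibitor of EGF receptor signalling. The patterns of Slc2a5 and Slc2a2 were matched less closely by this measure, which depends on how much a gene varies. Root mean square deviations from the gene's own mean were 0.395 for Slc2a5, 0.304 for Slc2a2, 0.207 for Slc5a1 and 0.127 for Khk. For Slc2a5 the nearest were Retnlg (0.0993), Cyp2u1 (0.101) and Cyp4v3 (0.112), and for Slc2a2 they were Cyp2c55 (0.0836), Eno3 (0.0857), the muscle enolase, and Gsta4 (0.0927). These are descriptions over 5 libraries, with no test.

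The wider sugar route was examined in 69 further genes in 9 lists, of which 68 were tested. None passed in either direction, with 50 folds above 0, 18 below and a median of 0.05. Over all 23408 genes tested, 14228 folds were above 0 and 9180 below, which is the base for the counts of each list that follows. Slc5a2 alone stood below the threshold before adjustment, at 0.0369 by limma. It encodes SGLT2, the glucose transporter of the kidney, and was low at 0.47 to 0.52 in WT and 0.67 in both KO 2 and KO 3. G6pc2, the glucose-6-phosphatase subunit of pancreatic islets, was listed at 0 in the 5 libraries compared and was not tested.

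Disaccharidases cut dietary sugars at the brush border, and none of 4 passed. Sis, sucrase-isomaltase, stood at 7.87, 7.43 and 7.50 for WT, 7.61 for KO 2 and 8.12 for KO 3, with a fold of 0.27 ± 0.21 (SE). Mgam, maltase-glucoamylase, had a fold of 0.12 ± 0.16 and Treh, trehalase, one of 0.16 ± 0.17. These 3 were highest in KO 3. Lct, lactase, was highest in WT 2 at 2.01, with 1.17 in KO 2, 1.81 in KO 3 and a fold of -0.15 ± 0.35. The median difference of the list from the WT mean was 0.34 in KO 3 and -0.06 in KO 2.

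Among 8 other facilitative transporters of the SLC2 family, none passed, with 6 folds above 0 and 2 below. Slc2a9, which carries urate, had the smallest p, at 3.24 to 3.49 in WT, 3.54 in KO 2 and 3.63 in KO 3 (fold 0.25 ± 0.12, SE). None of 6 other SLC5 cotransporters passed either, with 5 above 0 and 1 below. Slc5a9, which encodes SGLT4, a mannose and fructose transporter, was present at 3.28 to 3.98 in WT, at 3.54 in KO 2 and at 3.30 in KO 3.

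Of 6 other genes of fructose and polyol handling, none passed and all 6 folds were above 0, from 0.06 to 0.22. Sord, which makes fructose from sorbitol, stood at 4.75 to 4.84 in WT, 4.84 in KO 2 and 5.20 in KO 3. KO 3 was above every WT library and KO 2 was not, on the values printed.

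None of the 6 gluconeogenesis genes tested passed. Pck1, the cytosolic phosphoenolpyruvate carboxykinase, had a fold of 0.75 ± 0.44 (SE, unadjusted p = 0.145 by limma), with 2.65, 2.86 and 2.79 for WT, 2.72 for KO 2 and 4.31 for KO 3. As with G6pc, KO 2 stayed with WT and KO 3 stood apart. Pck2 had the smallest unadjusted p of the list, 0.139 by limma, with a fold of 0.19 ± 0.11 (SE). It ranged from 3.28 to 3.52 in WT and stood at 3.60 in KO 2 and 3.66 in KO 3. Both KO libraries were thus above all WT libraries, against 9.76% of all genes tested. With the rescaled KO 1 its fold was -0.08. Slc37a4, the transporter that feeds glucose-6-phosphate to G6pc, ranged from 3.69 to 3.75 in WT and stood at 3.64 and 3.88 in KO 2 and KO 3.

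Glycolysis, galactose steps, sugar sensing and the sodium pump gave 0 passing genes. The 20 glycolysis genes had 11 folds above 0 and 9 below, with a median of 0.00 and medians of -0.05 in KO 2 and -0.01 in KO 3 against the WT mean, so KO 3 was not high for this list. Galk1, galactokinase, had the smallest p of the 5 galactose genes, at 2.63 to 3.02 in WT, 3.17 for KO 2 and 3.14 for KO 3. Of 10 sensing genes, Mlxipl, which encodes the carbohydrate response factor ChREBP, had a fold of 0.27 ± 0.21 (SE). Its known target Txnip had one of 0.22 ± 0.22 (SE). In both genes WT 3 was the lowest library and KO 2 lay inside the WT range. The sweet taste receptor gene Tas1r2 was at or below 0.06 in all 5 libraries.

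**Figure D4:**
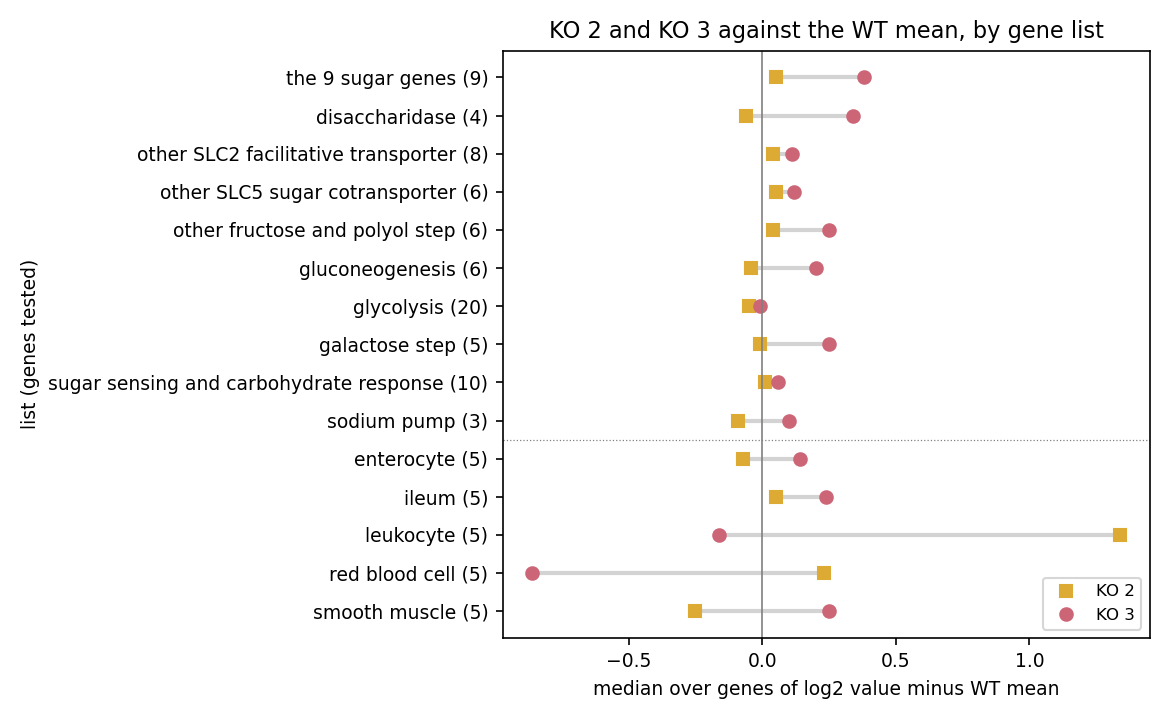
Median over the genes of each list of the log2 value in KO 2 (squares) or KO 3 (circles) minus the WT mean, with the number of genes tested in brackets; marker lists of cell types lie below the thin horizontal line. The 9 sugar genes reach 0.38 in KO 3 and 0.05 in KO 2, glycolysis lies near 0 in both, and leukocyte markers are at 1.34 in KO 2.

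KO 1 holds values for 25 of the 69 further genes, besides G6pc and Fbp1. Slc5a4a and Slc5a4b, which encode SGLT3 proteins, stood at 2.88 and 2.77 after rescaling, against 0.55 to 0.80 and 0.20 to 0.43 in the other 5 libraries. They are close relatives side by side on chromosome 10, and the split of reads between them is uncertain. Lct stood at 7.05 against 1.08 to 2.01. Slc2a4, the insulin-responsive carrier GLUT4 of muscle and fat, went the other way at 0.52 against 3.29 to 3.84. Of the smooth muscle markers, KO 1 covers only Myh11, at 3.80 against 7.34 to 7.82, and Des, at 2.25 against 6.82 to 7.37. Their part in the Slc2a4 value was not tested. These are values of a single library, with no test.

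**Figure D5:**
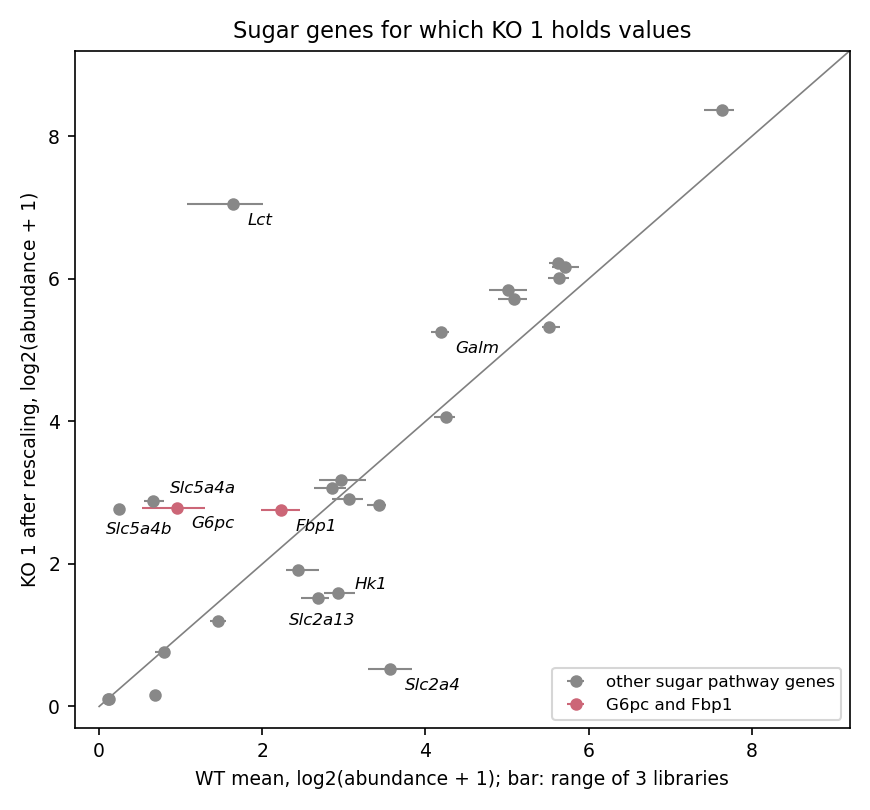
Rescaled KO 1 value against the WT mean, both as log2(abundance + 1), for the sugar genes that KO 1 covers; horizontal bars give the range of the 3 WT libraries and the diagonal marks equal values. Lct, Slc5a4a, Slc5a4b and G6pc lie well above the diagonal, and Slc2a4, at 0.52, lies below it.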

How the data were processed

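The authors deposited 1 table of log2 values for all 6 libraries, used here as log2(abundance + 1). The log base, added constant and abundance unit are unstated, and base 2 is an assumption. The genome build is mm10, per the submitters' processing notes, and RNA was selected for poly(A) and made into libraries with a stranded low-input kit, per the labels' protocols. No source used here names the aligner, counting tool or strand setting.

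Of 32245 rows, 26 with a date in place of a symbol were dropped. GENCODE vM21 (GRCm38) placed 31398 symbols. KO 1 was scaled by its median ratio to the other libraries over 2160 genes with a mean of at least 4, and set to missing where it holds no values. Genes above 0 in at least 2 of the other 5 libraries (23408) were compared between WT 1 to WT 3 and KO 2 and KO 3 by limma (version 3.58.1, under R 4.3.3), using its trended variance, a model of group alone and 2-sided tests. The test was tried on simulated data.

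The members and lists were chosen with earlier results of these data known. All 9 genes are named, with up to 4 genes of each list by smallest p, and the 3 nearest in pattern to Slc5a1, Slc2a2, Slc2a5 and Khk among genes with a mean of at least 2. Slc5a4a, Slc2a4, Tas1r2 and G6pc2, outside that rule, were chosen after their values were seen. Alternatives were KO 1 kept, the replicate block, centring, other filters and constants, base e, and each library left out.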

Additional observations from a re-analysis of the deposited data

Results flagged for a closer look

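KO 1, the library outside the main comparison, covers 2 of the 9 members and 25 of the 69 further sugar genes. Of these, only G6pc, Lct, Slc5a4a and Slc5a4b stood at least 1 log2 unit above every WT library there. The share of all covered genes that do so was not counted. After rescaling, G6pc was at 2.79 (WT 0.53 to 1.30), Lct at 7.05 (WT 1.08 to 2.01), Slc5a4a at 2.88 (WT 0.55 to 0.80) and Slc5a4b at 2.77 (WT 0.20 to 0.32). Of the other proximal markers with values there, Gata4 was higher than in the other 5 libraries at 5.19 and Gip at 4.02, and Slc40a1 was lower at 5.15 against 6.30 to 6.67. Their part in these values was not tested.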

How the results depend on the processing

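No member passed under any of the 15 alternatives; several of these cannot turn a fold's sign by construction (no filter, a mean of at least 1, base e), and the block gives the same folds as leaving out WT 1. Over all genes, 1 passed as reported, 0 with KO 1 rescaled, with all 6 libraries as deposited, with the replicate block, with a mean of at least 1, with a constant of 0.1 and with any library left out (0 to 0), 4 with no filter, the cause not tested, and 27 when centred on enterocyte markers, an alternative chosen after seeing the data; the cause of the last was not tested. With KO 1 as deposited, its listed zeros turned Slc5a1 to -2.09, Slc2a1 to -1.05, Slc2a5 to -0.38, Slc2a7 to -0.15, Khk to -1.06 and Tkfc to -1.58. The block turned Slc2a1 to -0.07. Enterocyte centring turned Slc2a1 to -0.06 and Tkfc to -0.03. Left-out libraries gave Slc5a1 -0.11 to 0.38, Slc2a1 -0.07 to 0.22, Slc2a2 -0.47 to 0.28, G6pc -0.26 to 1.16, Tkfc -0.06 to 0.25, Slc2a5 0.19 to 0.94, Slc2a7 0.05 to 0.47, Khk 0.12 to 0.29 and Fbp1 0.22 to 0.45, a lone KO library being assumed to vary like WT. Base e would raise every fold by 1 constant factor (Slc2a5 to 0.81). Same-numbered libraries correlated in their deviations at 0.27 for number 2 and 0.33 for number 3. The labels do not say that a number marks a shared animal, and number 1 cannot be examined, so the block is no paired design. Depth is unknown and sets no interval here.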
